A study of Mus musculus with 8 samples.

Results

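The peptidases of the proximal tubule brush border and their partners were followed as a set of 10 genes: Anpep, Dpp4, Xpnpep2, Mep1a, Mep1b, Ggt1, Dpep1, Acy1, Acy3 and Cltrn, the last also known as Tmem27. They were chosen by name, and all 10 were among the 46517 genes counted and the 15382 that had enough reads to be tested. RNA came from whole kidneys, 1 library per mouse: C10, C11, C13 and C14 are the 4 Control libraries, and KO16, KO18, KO19 and KO20 the 4 cKO libraries. Every mouse was Xpr1lox/lox, with exon 2 of the retroviral receptor and phosphate exporter gene Xpr1 flanked by lox sites, and every mouse drank 2 mg/ml doxycycline for 2 weeks, starting at 8 weeks of age. In addition, cKO animals had Pax8-rtTA, an activator driven by the Pax8 promoter in kidney tubule cells, and LC-1, which supplies Cre under that activator. Controls were littermates lacking both transgenes, so effects of Cre and rtTA cannot be told apart from those of losing Xpr1. The labels name the mice as separate animals and give no litter or batch. The p-values rest on the variation among these 8 kidneys.

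The brush border is the carpet of microvilli on the urinary face of proximal tubule cells. Filtered peptides are cut there by membrane-bound peptidases, and the amino acids released are taken up by neighbouring carriers. Glutathione in the tubule fluid is taken apart by the same route, first by gamma-glutamyl transferase and then by a dipeptidase.

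Xpr1 was at 80.2, 126, 108 and 103 CPM (TMM-scaled) in C10, C11, C13 and C14, and at 5.74, 26.5, 22.0 and 11.98 CPM in KO16, KO18, KO19 and KO20. Each library thus followed its label. Reads assigned to genes ran from 20366113 to 26155030 per library. The libraries differed in their lean to long or short transcripts, measured as the slope of log2 CPM, relative to the Control mean, per doubling of exonic length. KO16 (-0.53) and KO20 (-0.26) had the strongest lean to short transcripts and the lowest Xpr1 levels, whereas C11 (0.22), KO18 (0.17) and KO19 (0.11) leaned to long ones. The part of this lean in the results was not tested separately from the loss of Xpr1, and the value without KO16, KO20 and C11 is given for each member. That setting called 57.8% of all genes, so a call in it does not set a member apart.

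Transcripts of the set were lower in cKO kidneys for 6 of 10 members by the edgeR test: Acy3, Ggt1, Mep1b, Acy1, Dpep1 and Mep1a. No member was called higher, and Anpep, Xpnpep2, Cltrn and Dpp4 did not pass. Over all genes tested, 14.1% were called in either direction, 6.61% lower and 7.5% higher. The median log2 fold change of the 10 members was -1.23, against 0.01 over all genes tested. In 7 members the highest cKO library lay below the lowest Control library, a separation found in 11.6% of all genes. Dpp4 was separated the opposite way, as were 11.2% of all genes.

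**Figure D1:**
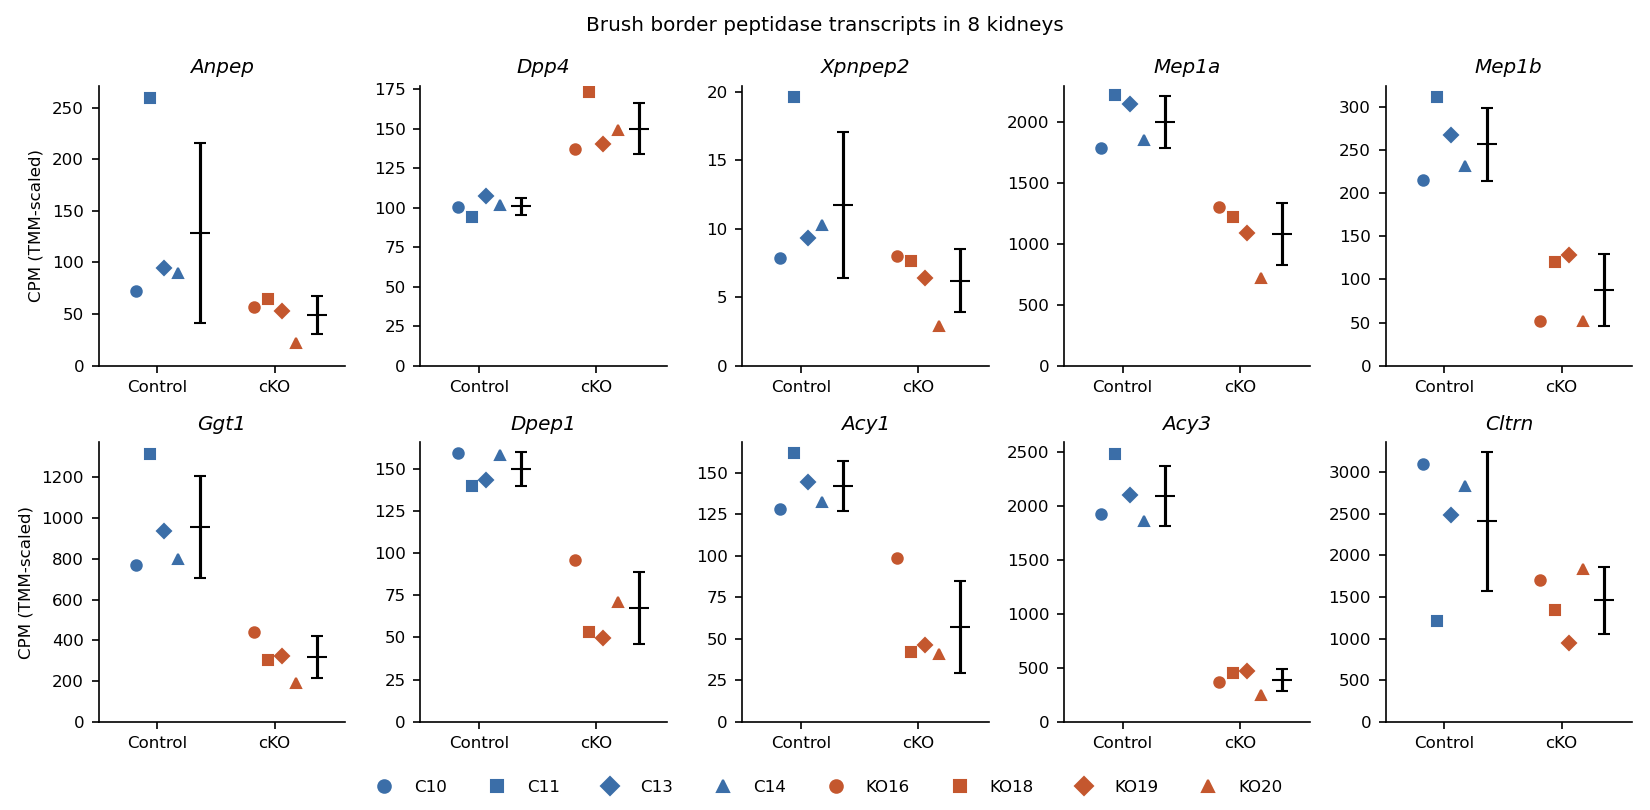
Level of each of the 10 members in each kidney (CPM, linear axis from 0), with 1 symbol per library and the mean ± SD of 4 libraries beside each group. Acy3 shows the widest gap between groups, Dpp4 lies higher in all cKO kidneys, and Cltrn and Xpnpep2 overlap between groups.

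The aminoacylases remove acyl groups from amino acids and are the members that act inside the cell rather than on its surface. ACY1 acts on N-acetylated aliphatic amino acids, and ACY3 on N-acetylated aromatic amino acids and mercapturates, the conjugates in which many toxins leave the body. Acy3 held 1929, 2481, 2106 and 1858 CPM in C10, C11, C13 and C14, and 374, 451, 473 and 248.9 CPM in KO16, KO18, KO19 and KO20. Every cKO library was thus below every Control library, and the cKO mean was 18.5% of the Control mean. The fall of Acy3 was the largest of the 10 (log2 fold change -2.44, SE 0.27, edgeR adjusted p = 0.00081), and it passed in all 19 other settings, between -2.56 and -2.09 (-2.13 without KO16, KO20 and C11). The gene (ENSMUSG00000024866) is compact, on the plus strand of chromosome 19 from 3986570 to 3990007 in GRCm38.

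Acy1 stood at 128, 162, 145 and 133 CPM in the Control libraries and at 98.6, 42.0, 46.6 and 40.8 CPM in KO16, KO18, KO19 and KO20. KO16 was far above the other cKO kidneys yet still below every Control kidney. Acy1 fell by 1.32 on the log2 scale (SE 0.31, edgeR adjusted p = 0.0226), by 1.72 without KO16 (adjusted p = 0.00081) and by 1.65 without KO16, KO20 and C11. The call was lost without C13 (0.0673), C14 (0.0562), KO19 (0.0596) or KO20 (0.131).

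The ratio of Acy3 to Acy1 within a library does not depend on how libraries are scaled. Its log2 value was 3.88 ± 0.06 in Control and 2.82 ± 0.70 in cKO kidneys (SD, n = 4 mice each), a difference of -1.06 (exact permutation p = 0.0286, adjusted p = 0.0429 over 6 pairs, the smallest p that 4 against 4 libraries allow being 0.0286). The Acy3 transcript thus fell more than that of Acy1 in these kidneys, most in KO16 (1.92) and KO20 (2.61), less in KO18 (3.42) and KO19 (3.34). The call was lost when any library but KO18 or KO19 was left out (adjusted p from 0.0571 without KO16 or KO20 to 0.229 without C11). The ratios of the groups did not overlap with all 8 libraries, and leaving a library out cannot change that. The test has little room with a library left out: 4 against 3 libraries allow no p under 0.0286, and the adjustment depends on the other pairs. Without KO16 and KO20 the difference was -0.50.

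Meprins are zinc endopeptidases that cut proteins and larger peptides at the brush border. Mep1a encodes the alpha subunit, which can be shed, and Mep1b the beta subunit, which stays anchored in the membrane and holds alpha there. Mep1b held 216, 311, 268 and 232 CPM in C10, C11, C13 and C14, and 51.4, 120, 128 and 52.0 CPM in KO16, KO18, KO19 and KO20. The cKO kidneys split into a lower pair, KO16 and KO20, and a higher pair, all below the Control range. Mep1b fell by 1.54 (SE 0.35, edgeR adjusted p = 0.0192), and the call was lost without C13 (adjusted p = 0.0589) and with library totals (-1.15, 0.0896). The decrease was smaller without KO16 and KO20 (-1.05, adjusted p = 0.0137) and without C11 as well (-0.98, 0.00012).

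Mep1a was among the most abundant members, at 1785.5, 2222.5, 2147 and 1852.9 CPM in the Control libraries and 1306.1, 1218.8, 1086.1 and 722 CPM in KO16, KO18, KO19 and KO20. The groups did not overlap. Mep1a fell by 0.89 (SE 0.25, edgeR adjusted p = 0.0417), the call nearest to the threshold. It was lost when any library but KO16 was left out: C10 (adjusted p = 0.0796), C11 (0.0806), C13 (0.127), C14 (0.0987), KO18 (0.0597), KO19 (0.0908) or KO20 (0.145). The decrease was called without KO16, KO20 and C11 together (-0.78, adjusted p = 0.00059), a setting in which 57.8% of all genes were called. It was also lost with RLE factors (adjusted p = 0.0622), upper-quartile factors (0.0818), library totals (0.15) or no filter on low counts (0.0658).

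The log2 ratio of Mep1a to Mep1b was 2.97 ± 0.09 in Control and 3.72 ± 0.70 in cKO kidneys (SD, n = 4 mice each). The difference of 0.75 passed (exact permutation p = 0.0286, adjusted p = 0.0429 over 6 pairs). The Control kidneys lay between 2.84 and 3.05, KO18 and KO19 at 3.34 and 3.08 just above them, and KO20 and KO16 at 3.80 and 4.67. Leaving out any library but KO18 or KO19 lost the call (adjusted p from 0.0571 without KO16 or KO20 to 0.229 without C11). Without KO16 and KO20 the difference was 0.24, so its size rested on those 2 kidneys.

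Ggt1 and Dpep1 act in sequence on extracellular glutathione. GGT1 removes the gamma-glutamyl group, and DPEP1, the renal dipeptidase, splits the cysteinylglycine that remains. DPEP1 also hydrolyses leukotriene D4 and certain antibiotics. Ggt1 held 769, 1316.5, 939 and 800 CPM in C10, C11, C13 and C14, and 443, 306, 325 and 191 CPM in KO16, KO18, KO19 and KO20. The lowest Control kidney was well above the highest cKO kidney, and the cKO mean was 33.1% of the Control mean. Ggt1 fell by 1.596 (SE 0.31, edgeR adjusted p = 0.00921) and passed in all 19 other settings, at -1.44 without KO16, KO20 and C11.

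Dpep1 varied little among Control kidneys, at 159, 140, 143 and 158 CPM, and stood at 96.1, 53.0, 49.7 and 71.2 CPM in KO16, KO18, KO19 and KO20. It fell by 1.15 (SE 0.25, edgeR adjusted p = 0.0143), with an adjusted p of 0.0836 without KO20, and by 1.62 without KO16, KO20 and C11. The log2 ratio of Ggt1 to Dpep1 was 2.64 ± 0.44 in Control and 2.22 ± 0.57 in cKO kidneys (SD, n = 4 mice each). A shift between the 2 steps was not detected (exact permutation p = 0.314, adjusted p = 0.377), and the sign of the difference turned from -0.42 to 0.18 without KO16, KO20 and C11.

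**Figure D2:**
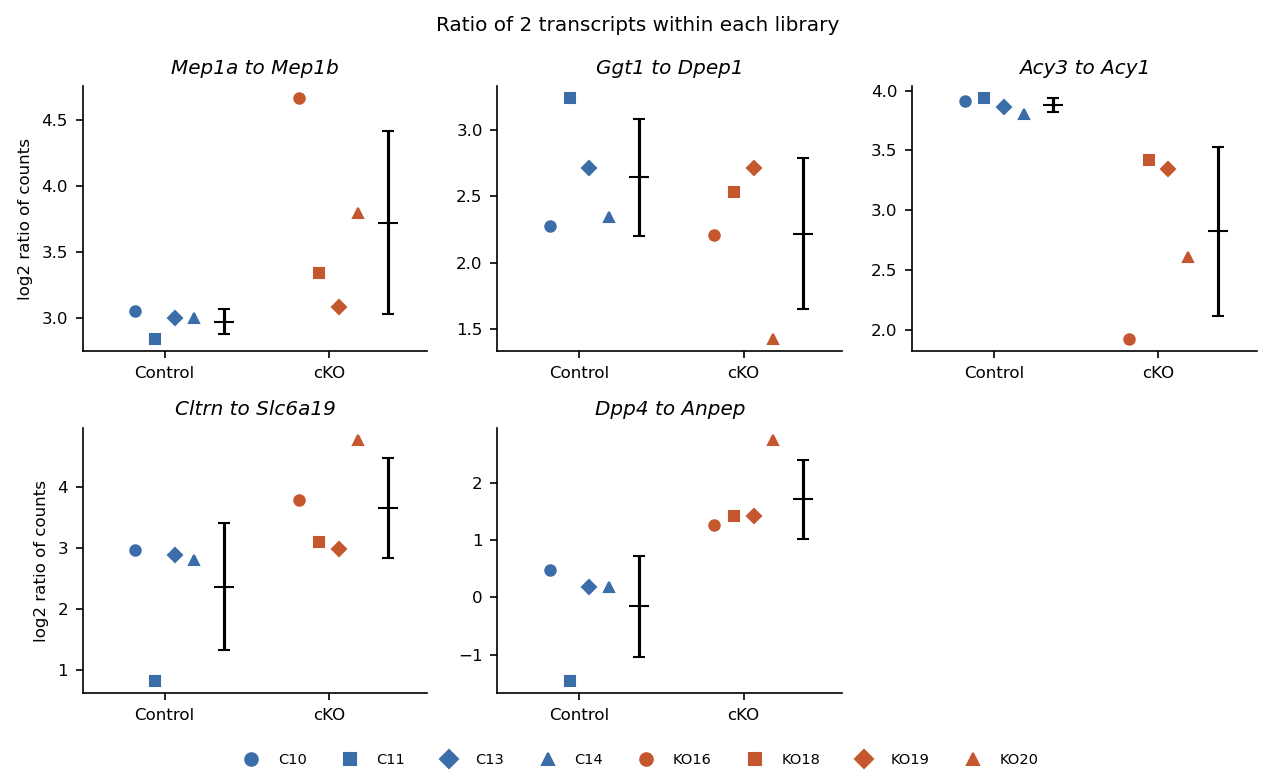
Log2 ratio of the counts of 2 transcripts in each library, 1 symbol per library, with the mean ± SD of 4 libraries beside each group; the vertical axes do not start at 0. The ratios of Mep1a to Mep1b, Acy3 to Acy1, Cltrn to Slc6a19 and Dpp4 to Anpep did not overlap between groups, whereas those of Ggt1 to Dpep1 did.

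The exopeptidases of the set trim peptides from their amino end. ANPEP, aminopeptidase N, removes single neutral residues. DPP4 removes dipeptides that end in proline or alanine and inactivates incretin hormones, and XPNPEP2 cleaves a first residue that precedes proline, as in bradykinin. Anpep held 72.3, 259, 94.2 and 89.4 CPM in C10, C11, C13 and C14, and 57.3, 64.5, 52.6 and 22.4 CPM in KO16, KO18, KO19 and KO20. The groups did not overlap, but C11 stood far above the other Control kidneys and KO20 below the other cKO kidneys. The log2 fold change of Anpep was -1.39 (SE 0.47) and did not pass (edgeR adjusted p = 0.0873). Without C11 it was -0.80 (adjusted p = 0.187). Without KO16, KO20 and C11 it was -0.58 and was called (0.00636), as were 57.8% of all genes. DESeq2 called it (adjusted p = 0.0302) in a fit that called 20.6% of all genes.

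Xpnpep2 was the least abundant member, at 7.86, 19.6, 9.30 and 10.2 CPM in C10, C11, C13 and C14, and 7.97, 7.61, 6.39 and 2.87 CPM in KO16, KO18, KO19 and KO20. C11 was again the highest kidney and KO20 the lowest, and the groups overlapped between C10 and KO16. The log2 fold change of -0.92 (SE 0.39) did not pass (edgeR adjusted p = 0.166). Without KO16, KO20 and C11 it was -0.42 (adjusted p = 0.0469).

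Dpp4 was the exception in direction. It held 100, 94.1, 107 and 102 CPM in C10, C11, C13 and C14, and 137, 173, 141 and 149 CPM in KO16, KO18, KO19 and KO20. All 4 cKO kidneys were above all 4 Control kidneys. The log2 fold change of 0.57 (SE 0.18) missed the threshold in the edgeR test (adjusted p = 0.0612) and was positive in all 19 other settings, from 0.49 to 0.91. It was called higher in 8 of them, among them DESeq2 (adjusted p = 0.00045), the fit without KO16 (0.0217) and the fit without KO16, KO20 and C11 (0.57, adjusted p = 0.0021). DESeq2 called 20.6% of all genes, and the fit without KO16, KO20 and C11 called 57.8%. Dpp4 has the longest exonic sequence of the 10, 6319 bases, and with the length trend of each library removed its value was 0.715 (adjusted p = 0.0344), in a fit that called 19.3% of all genes. An antisense gene shares 232 of these bases but had 2 reads over all libraries.

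The log2 ratio of Dpp4 to Anpep was -0.15 ± 0.88 in Control and 1.71 ± 0.69 in cKO kidneys (SD, n = 4 mice each). The difference of 1.86 passed (exact permutation p = 0.0286, adjusted p = 0.0429 over 6 pairs). The call was lost when any library but KO18 or KO19 was left out. Adjusted p then ran from 0.0571 without KO16 or KO20 to 0.171 without C11, C13 or C14. The difference was 1.43 without C11 and 1.14 without KO16, KO20 and C11, which leaves too few libraries to pass. DPP4 is also a surface antigen of T cells, and it occurs on other cells. Of 12 leukocyte markers 4 rose (Itgam, Adgre1, C1qa and Cd68) and 8 did not pass, and none was at 0 in all libraries. The T cell markers of the list, Cd3e and Cd3g, were among those that did not pass. The summed level of all 12 leukocyte markers was 39.0 to 50.9 CPM in Control and 85.7 to 183 CPM in cKO kidneys. Cd68 passed at an adjusted p of 0.0144 (0.0573 without C13 and 0.0528 without C14). The part of T cells or other leukocytes in the level of Dpp4 was not tested.

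Cltrn encodes collectrin, a membrane protein without peptidase activity. It brings the neutral amino acid carrier B0AT1, encoded by Slc6a19, and its relative SLC6A18 to the brush border. Cltrn held 3099.6, 1211.3, 2485.7 and 2827.5 CPM in C10, C11, C13 and C14, and 1707.8, 1338.4, 952 and 1832 CPM in KO16, KO18, KO19 and KO20. Of the Control kidneys only C11 lay within the cKO range. The log2 fold change of -0.72 (SE 0.34) did not pass (edgeR adjusted p = 0.212). Cltrn has the shortest exonic sequence of the 10, 1544 bases, and the kidneys lowest within each group, C11 and KO19, leaned to long transcripts. Among Control kidneys the order of Cltrn was that of the lean, from C10 (-0.15) through C14 (-0.04) and C13 (-0.03) down to C11 (0.22). Among cKO kidneys KO16 and KO20, which leaned to short transcripts, both held more Cltrn than KO18 and KO19. Within each of these pairs the order was not that of the lean. KO18 (0.17) leaned further to long transcripts than KO19 (0.11) but held more Cltrn. KO16 (-0.53) leaned further to short ones than KO20 (-0.26) but held less. The part of the lean in these levels was not tested. With the length trend removed Cltrn was called lower (-0.953, adjusted p = 0.0335). It was also called with the length slope, itself taken from these same counts, as a covariate (-0.88, 0.0214, in a fit that called 33.2% of all genes). Without KO16, KO20 and C11 Cltrn was at -1.33 (0.00012), in a fit that called 57.8% of all genes.

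The carrier gene Slc6a19 fell by 1.96 (SE 0.33, edgeR adjusted p = 0.00515), from 458 ± 158 to 118 ± 37.3 CPM (SD, n = 4 mice each). The log2 ratio of Cltrn to Slc6a19 rose from 2.36 ± 1.04 to 3.65 ± 0.82, a difference of 1.29 (exact permutation p = 0.0286, adjusted p = 0.0429 over 6 pairs). Without C11 that difference was 0.77, without KO20 it was 0.92, and without KO16, KO20 and C11 it was 0.15, so its size depended on those libraries. The call was lost when any library but KO18 or KO19 was left out (adjusted p from 0.0857 without KO16 to 0.257 without C11 or KO20). The groups were barely apart in this ratio, at 2.96 in the highest Control kidney (C10) and 2.98 in the lowest cKO kidney (KO19). Slc6a18 fell by 0.76 (edgeR adjusted p = 0.0439), a call that was lost when any library but KO16 was left out (adjusted p from 0.0621 without KO18 to 0.168 without KO20).

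**Figure D3:**
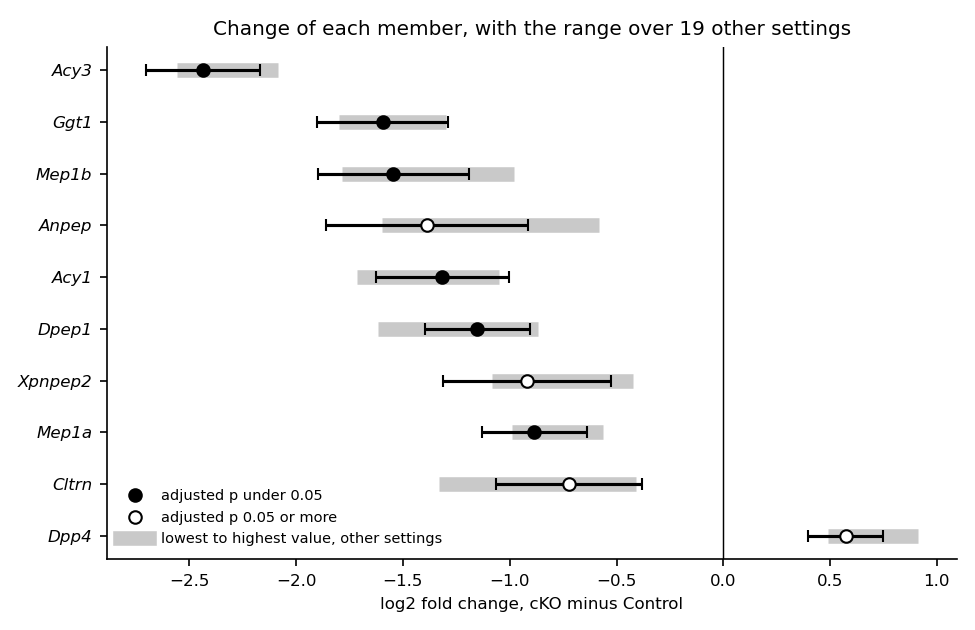
Log2 fold change of each member, cKO minus Control, as points with the SE of the edgeR fit; filled points passed at an adjusted p under 0.05. Grey bars run from the lowest to the highest value over 19 other settings; Dpp4 stays above 0 throughout and the other 9 below 0.

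Levels of different genes can be compared only per length, here as FPKM, the TMM-scaled CPM per kilobase of exonic sequence. In Control kidneys Cltrn (1558 ± 541 FPKM, SD, n = 4 mice) and Acy3 (1025 ± 136) stood highest, with overlapping ranges. They were followed by Mep1a (580 ± 62.3), Ggt1 (280 ± 73.7), Mep1b (97.8 ± 16.1), Dpep1 (60.3 ± 4.02) and Acy1 (47.8 ± 5.08), each with a range below that of the gene before it. Anpep (31.1 ± 21.1) overlapped Acy1, and Dpp4 (15.97 ± 0.86) and Xpnpep2 (2.41 ± 1.09) closed the order. With the length of the longest transcript in place of all exons, Dpep1 and Acy1 changed places.

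In cKO kidneys Cltrn again led (944 ± 257 FPKM), now clear of the next gene, which was Mep1a (314 ± 74.5) rather than Acy3 (189 ± 49.5). Acy3 overlapped both Mep1a and Ggt1 (92.8 ± 30.3). Dpp4 (23.8 ± 2.57) stood above Acy1 and Anpep, although its range overlapped that of Acy1. With the longest transcript as length, Acy1 stood above both Dpep1 and Dpp4 instead. Acy3 made up 28.0% of the summed FPKM of the 10 genes in Control kidneys (24.1% to 36.4%) and 11.7% in cKO kidneys (7.32% to 16.8%). Cltrn made up 41.5% (23.5% to 51.2%) and 56.4% (44.7% to 71.2%).

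**Figure D4:**
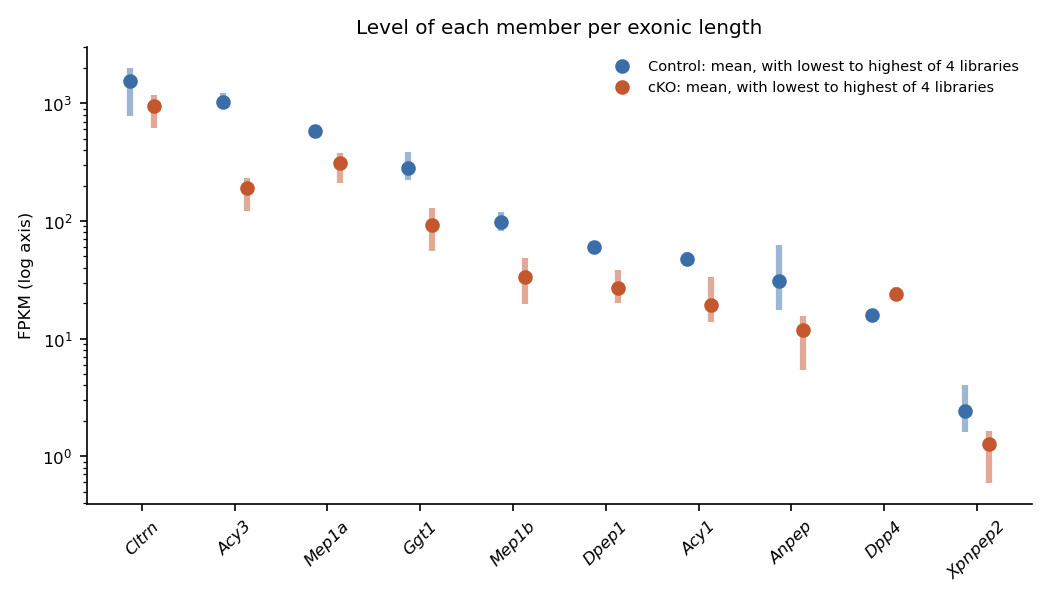
Level of each member per exonic length (FPKM, log axis) in Control and cKO kidneys, ordered by the Control mean; points are means and bars run from the lowest to the highest of 4 libraries. Acy3 drops from 1025 to 189 FPKM, and Dpp4 is the member whose cKO range lies above its Control range.

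The kidneys did not hold the same place in every gene. Among Control kidneys C11 was the highest for 7 of the 10 members and the lowest for 3 (Dpp4, Dpep1 and Cltrn). Among cKO kidneys KO20 was the lowest for 6, and KO16 was the highest for 5. The pattern of Mep1a over the 8 libraries was most like the mean of the other members (r = 0.98), and that of Dpp4 least like it (r = -0.91). For Cltrn the value was 0.32. These are descriptions over libraries that fall into 2 groups, so much of each value is the group difference. Of 9379 other genes of at least 10 CPM, the pattern most like the members' mean was that of Ugt1a7c, a glucuronosyltransferase (r = 0.998). It was followed by Slc22a6, the organic anion transporter OAT1 (0.996), Slc30a2, a zinc transporter (0.995), Gpd1, glycerol-3-phosphate dehydrogenase (0.994), and Fam169b (0.994). Their log2 fold changes ran from -2.54 (Slc22a6) to -1.12 (Gpd1), all called, with the call of Gpd1 lost without KO20 (adjusted p = 0.065). Reads shared among Ugt1a members may make Ugt1a7c uncertain.

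Among other plasma membrane and secreted peptidases, 28 of 35 listed genes had enough reads to be tested, 4 fell (Cpq, Cndp1, Pm20d1 and Hpn), 2 rose (Ggt5 and St14) and 22 did not pass, with a median log2 fold change of -0.25. Cndp1, carnosine dipeptidase, fell from 86.9 ± 17.1 to 12.9 ± 5.60 CPM (-2.75, SE 0.35, edgeR adjusted p = 0.00152). Pm20d1, which joins and splits N-acyl amino acids, fell by 2.07 (adjusted p = 0.00725). St14, the membrane serine protease matriptase, rose by 1.11 (adjusted p = 0.0185). Ggt5, a relative of Ggt1 that acts on leukotriene C4, rose from 3.40 ± 0.85 to 7.07 ± 1.31 CPM (1.05, adjusted p = 0.0237). The call of St14 was lost without C10 (adjusted p = 0.0639), C13 (0.0789), C14 (0.0766) or KO19 (0.0502), and that of Ggt5 without C10 (0.0771), C13 (0.0883), C14 (0.0879) or KO20 (0.0654).

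Other peptidases known from the brush border did not pass in the edgeR test. Ace, angiotensin-converting enzyme, had a log2 fold change of -1.70 (SE 0.57, edgeR adjusted p = 0.0815). Its Control kidneys held 116 to 367 CPM and its cKO kidneys 20.8 to 106 CPM, without overlap, and C11 was the highest. Ace was called with DESeq2 (adjusted p = 0.0131), with the length trend removed (0.0338) and with the length slope as a covariate (0.00967). These fits called 20.6%, 19.3% and 33.2% of all genes. Without KO16, KO20 and C11 Ace was at -0.65 and was called (adjusted p = 0.0136), as were 57.8% of all genes. Mme, neprilysin, had a value of -0.60 (0.273), and -0.44 in the same setting, where it was called (0.0173). Enpep, aminopeptidase A, had a value of -0.68 (0.32), which turned to 0.12 (0.443) there.

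Of 33 intracellular peptidases and acylases 7 fell (Lap3, Pepd, Blmh, Aspa, Aspg, Apeh and Ggct), 0 rose and 26 did not pass, with a median of -0.47. Aspa, the aminoacylase that hydrolyses N-acetylaspartate and a relative of Acy3, fell from 313 ± 71.2 to 119 ± 36.1 CPM (-1.40, SE 0.28, edgeR adjusted p = 0.0113). Aspg, an asparaginase, fell by 1.84 (adjusted p = 0.003). Ggct, gamma-glutamylcyclotransferase, which acts on gamma-glutamyl dipeptides, fell by 1.61 (0.00904, and 0.0546 without KO20 and 0.0699 with the length trend removed). Blmh, bleomycin hydrolase, fell by 0.92 (0.0176), a call lost without C10 (0.0565), C13 (0.0676), C14 (0.0554) or KO20 (0.102), with library totals (0.0666) or with the length trend removed (0.0886).

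Of 14 genes listed as apical carriers of amino acids and peptides, 8 fell, 0 rose and 6 did not pass, with a median of -0.94. Those that fell were Slc6a19, Slc6a18, Slc6a20a, Slc6a20b, Slc3a1, Slc7a9, Slc7a13 and Slc6a13. The site of each carrier in the cell was not examined. Slc7a9, the cystine carrier subunit, fell by 2.07 (SE 0.21, edgeR adjusted p = 0.00067), Slc6a20b fell by 1.86 (0.00177) and Slc7a13 fell by 1.76 (0.00604). Slc15a2, the high-affinity carrier of dipeptides and tripeptides, had a value of -0.55 (0.169).

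Of 19 tested genes of microvillus structure and scaffold, 3 fell (Pdzd3, Pdzk1 and Treh), 0 rose and 16 did not pass, and the median was -0.18. The scaffold gene Pdzd3 fell by 1.35 (edgeR adjusted p = 0.00583) and Pdzk1 by 0.99 (0.0174, and 0.0682, 0.0574 and 0.071 without C13, C14 and KO20). Treh, the brush border enzyme trehalase, fell by 1.04 (0.0245), a call lost without any of C10, C13, C14, KO18, KO19 or KO20 (0.0534 without KO18 to 0.122 without KO20). These lists differ in length and expression from the set of 10, and the difference between their counts was not tested.

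**Figure D5:**
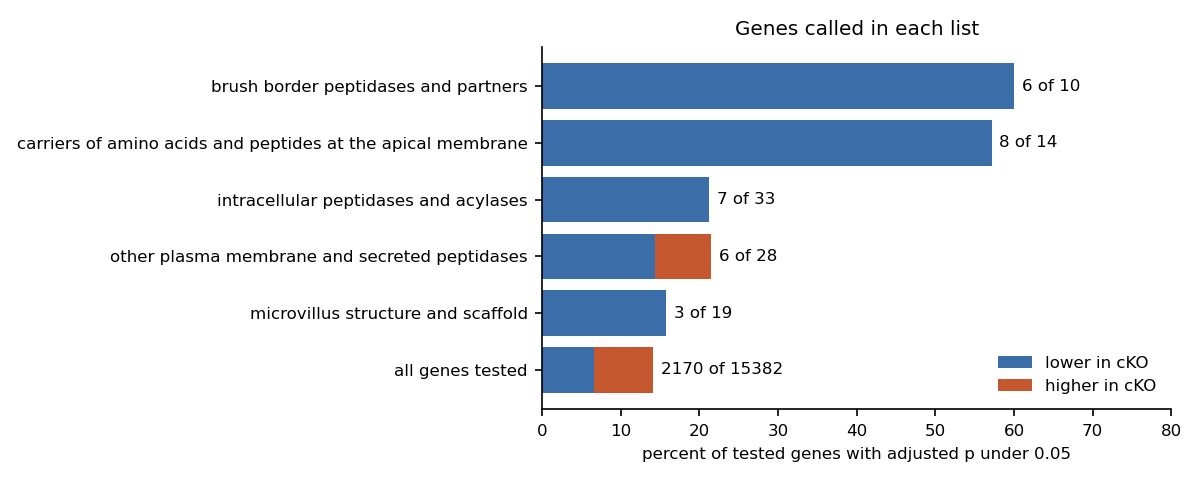
Percent of the tested genes called at an adjusted p under 0.05, lower or higher in cKO, for the members, the other peptidases, the apical carriers, the microvillus genes and all genes, with the numbers of genes at the bar ends. The members (6 of 10) and the genes listed as apical carriers (8 of 14) hold larger shares of called genes than the peptidase and microvillus lists drawn and than all genes (2170 of 15382).

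Markers of proximal tubule segments fell as well. Of 12 early (S1 and S2) markers 11 fell and 1 did not pass, with a summed level of 6147 to 13030 CPM in Control and 976 to 2654 CPM in cKO kidneys. Lowest in p-value were the organic anion carrier gene Slc22a8 (-5.90), Gatm, of creatine synthesis (-2.07), Slc34a3 (-4.25) and Slc7a7 (-1.74). Of 10 late (S3) markers 6 fell, 2 rose (Agt and Slc7a12) and 2 did not pass, at 3843 to 5288 against 1101 to 2110 CPM. Cyp7b1 fell by 2.06, and Slc5a8 fell by 1.302 (edgeR adjusted p = 0.0176, and 0.0556 without C13), whereas the angiotensinogen gene Agt rose by 1.28. All 7 markers of injured proximal tubule rose, from 849 to 1023 CPM in Control to 3677 to 5609 CPM in cKO kidneys, with the smallest p-values for Spp1 (2.21), Cdkn1a (5.04), Vcam1 (2.01) and Lcn2 (4.10). In whole-kidney RNA, fewer proximal tubule cells and less of a transcript per cell cannot be told apart, and the part of these markers in the fall of the peptidases was not tested.

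Markers of other kidney cells were examined in the same way. Among 6 thick ascending limb markers 0 passed, at 4387 to 5988 against 3977 to 6020 CPM. The same held for 5 distal convoluted tubule markers (946 to 1289 against 854 to 990 CPM), 6 podocyte markers (146 to 390 against 89.6 to 193 CPM), 7 endothelial markers (361 to 527 against 275 to 354 CPM) and 5 red blood cell markers (192 to 300 against 101 to 703 CPM). Of 8 collecting duct markers Aqp2 rose (1.10, edgeR adjusted p = 0.0117, and 0.0527 without C13) and Aqp3 fell (-1.03, 0.0231, and 0.0901 without KO20, 0.0634 without KO19, 0.0594 without C13 and 0.053 without C14), at 375 to 437 against 439 to 726 CPM. Of 7 fibroblast and mural markers Col3a1 rose (1.53), at 188 to 332 against 333 to 514 CPM. No marker of these lists was at 0 in all libraries.

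Regulators of proximal tubule identity fell in 4 of 7 cases (Hnf4g, Ppara, Hnf4a and Maf), with 0 higher and 3 not past the test. Hnf4a, the nuclear receptor, fell from 735 ± 149 to 251 ± 143 CPM (-1.55, SE 0.41, edgeR adjusted p = 0.0363), a call lost without any library but KO18 or KO19 (0.0549 without KO16 to 0.0927 without C13) and with library totals (0.126). Leaving out KO16, KO20 and C11 gave -0.90, which was called. Hnf4g fell by 2.04 (0.00196) and Ppara by 1.97 (0.019). The call of Ppara was lost with library totals (0.0595) and without KO16 and KO20 (-1.47, 0.0506), and without C11 as well it was -1.16 and was called. Maf fell by 0.83 (0.0417), a call lost without any library but KO16 or KO18 (0.0798 without C10 to 0.117 without C14).

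Short promoter stretches that match the motif of HNF4 factors are shown, as Hnf4a and Hnf4g were among the genes that fell. A part of HNF4 factors in the fall of any member was not tested. Windows of 250 bases before to 50 after each annotated start (RefSeq, GRCm38.p6) were found for 9 of the 10 members, all but Mep1b. There were 13 windows in all, 4 of them for Ggt1, whose first and last listed starts are shown. They were searched on both strands for CAAAGTCCA, the repeat bound by HNF4, with at most 1 mismatch. Capitals mark the match, and positions are counted from the start of transcription.
Ggt1, HNF4 motif at -41 to -33 of the first start: tctgaagggcTGGACTCTGgcttctgtggc
Ggt1, HNF4 motif at -195 to -187 of the last start: cagtgccgcaCAAAGTCCCaccacaggtgc
Mep1a, HNF4 motif at -3 to 6: acagtgagagCAAGGTCCAataggttttta

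The Ggt1 stretches lie on the plus strand at chr10:75564081-75564110 and chr10:75573290-75573319, and the Mep1a stretch lies on the minus strand at chr17:43502757-43502786. The motif was found in 3 of the 13 member windows, in Ggt1 and Mep1a alone, and in 8.47% of all 32851 windows. These are shares of windows and not of genes, and Ggt1 has 4 of the 13. The window of Acy3, the member that fell most, held no match at this setting. A match describes letters in these windows and not binding.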

How the data were processed

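Whole-kidney mRNA libraries of 8 mice were analysed, 4 Control and 4 cKO, with 1 library per mouse. The files as deposited hold unnormalized read counts for each Ensembl gene, per the file headers. Reads were processed with cutadapt 1.3, STAR 2.4.0g and HTSeq 0.6.1 on GRCm38, per the submitters' processing notes. Annotation release and strand setting are not stated in the labels used here. Closing lines that name no gene held 39.7% to 56.2% of each file and were left out. Symbols and exonic lengths came from GENCODE vM21 (46005 of 46517 identifiers matched).

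Counts were compared with edgeR 4.0.16 (R 4.3.3): TMM scaling, filterByExpr (minimum count 10, minimum total 15), and the quasi-likelihood F test over all 8 libraries, with no covariate. P-values were adjusted by Benjamini-Hochberg over the 15382 genes tested (threshold 0.05). The SE of a log2 fold change was derived from the F statistic. CPM are TMM-scaled, and FPKM divide them by merged exonic length. Ratios of 2 transcripts within a library used a pseudocount of 0.5 counts and an exact two-sided permutation test (SciPy 1.17.1), adjusted over 6 pairs, of which 5 are given. The other pair and some listed genes are not reported here. Mouse numbers are not shared between groups, so no pairing was fitted. Alternatives were RLE, upper-quartile and library-total scaling, DESeq2 1.42.0, limma-voom (limma 3.58.1), other filters, each library left out, KO16 and KO20 or KO16, KO20 and C11 left out, and 2 corrections for transcript length.

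The members and lists were chosen with earlier results of these data known. Genes named are all members, Xpr1, the partners in the ratios, the genes with the smallest p in each list (up to 4 where 3 or more passed, otherwise up to 2), and the 5 genes of at least 10 CPM whose pattern was most like the members' mean. Slc6a18, Mme, Ace, Enpep and Slc15a2 were named after their values were seen.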

Additional observations from a re-analysis of the deposited data

Results flagged for a closer look

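Among 24 combinations of gene and group examined (the 10 members, Xpr1 and Slc6a19 in each group), 2 held a kidney far from the other 3, where chance flags about 1 in 20. For Anpep the Control kidney C11 held 259.1 CPM, against 72.3 to 94.2 CPM in the other Control kidneys, and the gap to the nearest of them was 0.883 of the whole range, past the 95% limit for 4 samples. For Acy1 the cKO kidney KO16 held 98.6 CPM, against 40.8 to 46.6 CPM in the other cKO kidneys, a gap of 0.90 of the range.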

How the results depend on the processing

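Each of the 10 members kept its direction in all 19 alternatives, and Acy3 and Ggt1 passed in all of them. The count of members lower lay between 3 (without C13 or without KO20) and 6 when 1 library was left out, and the count of members higher between 0 and 1. Dpp4 made the count of members higher 1 with upper-quartile factors, library totals, DESeq2, both length corrections, without KO16 and KO20, and without KO16, KO20 and C11. Upper-quartile factors and library totals moved the median over all genes, on the log2 scale, to 0.14 and 0.34, and the share of higher genes among those called from 53.2% to 63.9% and 81.2%. Over all genes 2170 were called, 1106 to 2697 with 1 library left out, 9175 without KO16, KO20 and C11, and 5111 with the length slope as a covariate. The cause was not tested.

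The within-library ratios were the same with a pseudocount of 2 counts. With 1 library left out, the difference ran from 0.43 to 0.96 for Mep1a to Mep1b, -1.26 to -0.76 for Acy3 to Acy1, 0.77 to 1.51 for Cltrn to Slc6a19, 1.43 to 2.07 for Dpp4 to Anpep and -0.59 to -0.16 for Ggt1 to Dpep1. With fewer libraries exact tests have less room: the smallest p is 0.0667 for 4 against 2 and 0.1 for 3 against 2. For 4 against 3 it is 0.0286 before adjustment, and the adjusted value also depends on the other pairs. Without KO16 and KO20 the first 4 differences were 0.24, -0.50, 0.67 and 1.57, and without C11 as well they were 0.20, -0.48, 0.15 and 1.14, none past the test, while that of Ggt1 to Dpep1 turned to 0.18.

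Among other genes, the sign of Cldn16 (0.40) turned to -0.0105 without KO16 and KO20 and to -0.14 without C11 as well. Those of Slc12a3 (-0.52) and Nphs1 (-0.96) ran from -0.73 to 0.22 and from -1.23 to 0.16 with 1 library left out, the sign turning without C11, and were 0.58 and 0.52 without KO16, KO20 and C11. That of Enpep turned to 0.12 in the last setting, in which the values of Pm20d1 (-1.35), Aqp2 (0.70), C1qa (1.08) and Cd68 (0.99) were also over 1.5 times smaller and still called. Calls lost in settings not given above were those of Pdzk1 (adjusted p = 0.0822), Treh (0.0629), Slc5a8 (0.0948), Aqp3 (0.11), Maf (0.282) and Slc6a18 (0.246) with library totals, Treh (0.0502), Maf (0.0594) and Slc6a18 (0.0885) with upper-quartile factors, Slc6a18 with RLE factors (0.0602), Maf (0.0634) and Slc6a18 (0.077) with no filter on low counts, and Ggt5 (0.0729), Maf (0.0764) and Aqp3 (0.0633) without KO16 and KO20. With the longest transcript as length, 8 of 10 members kept their Control rank. The common biological coefficient of variation was 0.386. It takes in the spread between mice and that between libraries, and the part of sequencing depth in the precision was not tested.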
